A study of Mus musculus with 21 samples.

Results

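Alternative promoter and alternative last exon events were taken from the deposited splicing table of a mouse bone marrow RNA-seq study as every event whose annotation names a promoter or a C-terminus. There were 1838 such events among the 46443 of the table (3.96%), 1359 of them alternative promoter events in 710 genes and 479 alternative last exon events in 298 genes. They fell in 972 genes in all, 36 of which had both kinds. Each event has a PSI (percent spliced in, here a fraction of 0 to 1), which rises as reads on the examined junction outweigh those on a competing one. Many events come as mirror images in which examined and competing junction change places, so the 1838 events are 1320 distinct junction pairs. The 2 PSI values of a mirror pair are not free of each other, yet they summed to 1 within 0.001 for only 72 of 518 mirror pairs.

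Many mammalian genes are transcribed from several promoters, and each promoter gives the RNA its own first exon, which is spliced to a shared second exon. The choice changes the 5′ end of the RNA and often the start of the protein. Promoters of one gene can be read by different transcription factors, so the use of its starts and its overall level can vary separately between cells. Alternative last exons in the same way give proteins different C-termini and RNAs different 3′ ends.

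Long-term stem cells of the blood (LT-HSC) renew themselves and stand at its top, and multipotent progenitors (MPP) descend from them. Both were sorted from lineage-negative bone marrow of pooled animals, with MPP here the MPP3 and MPP4 fractions. There were 21 libraries, 3 in each of 7 groups. Batch 1 holds LT-HSC and MPP of Rxrabfl/fl mice, which carry floxed alleles of the retinoid X receptor genes Rxra and Rxrb and no Cre (called floxed controls), and of VaviCre+Rxrabfl/fl mice (called RXR knockouts), in which Cre recombinase stands under the Vav1 promoter, active throughout the blood system. Batch 2 holds LT-HSC only, from Vav1Cre+WT mice (Cre without floxed alleles), from Vav1Cre+Rxrabfl/fl mice and from Vav1Cre+Rxrabfl/fl Myclfl/+ mice, which also carry 1 floxed allele that the titles write as Mycl and the descriptions as Myc. In batch 1 the knockouts therefore differ from their controls by Cre as well as by the deletion. In batch 2 the control genotype is another, and neither the age nor the sex of the animals is given in the labels used here. The replicates are pools, so every p-value below measures the spread between pooled samples.

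Skipping of an Rxra exon, which checks the labels, had a PSI of 0.938 in LT-HSC 1 of the knockouts and of 1 and 0.5 in knockout MPP 1 and 3 of batch 1, and the other batch 1 knockouts had no value there. It was 0, 0.0127 and 0 in the batch 2 libraries labelled RXR knockout and 0 to 0.1 in all controls, and 0.647, 0 and 1 in the Mycl group, so the batch 2 libraries are named here by their labels only. The summed level of 8 LT-HSC markers was 237 to 730 TPM (transcripts scaled to a common library total, an abundance per length) over the LT-HSC groups of batch 1 and 95.9 to 140 TPM over MPP, and that of 7 MPP markers was 85.02 to 315 TPM against 1285 to 2181 TPM. Markers of other cells moved too. In LT-HSC of batch 1, 7 B cell markers summed to 9.94 to 216 TPM in floxed and 365 to 890 TPM in knockout libraries. In MPP they summed to 2155 to 11706 TPM in floxed and 684 to 6022 TPM in knockout libraries. The 5 megakaryocyte markers summed to 106 to 381 TPM in floxed and 355 to 473 TPM in knockout LT-HSC. In MPP they summed to 27.0 to 43.0 TPM in floxed and 55.2 to 62.4 TPM in knockout libraries. The 6 erythroid markers summed to 112 to 312 TPM in floxed LT-HSC, 98.2 to 207 TPM in knockout LT-HSC, 62.8 to 74.9 TPM in floxed MPP and 50.8 to 76.9 TPM in knockout MPP. No marker of these lists was at 0 throughout a batch 1 group. Of the 7 B cell markers, however, 4 stayed under 1 TPM throughout floxed LT-HSC and 4 throughout knockout LT-HSC. In MPP 3 of them did so in the floxed group and 1 in the knockouts. Of the 5 megakaryocyte markers, 2 stayed under 1 TPM throughout floxed MPP and 1 throughout knockout MPP. These sums thus rest on part of the list. The part of these markers in the results below was not tested. The number of reads behind a PSI is unknown. As a measure of it, 1681 to 1799 of the 1838 events had a value in each library of batch 1 and of the Cre control, but 1396 in library 2 and 1582 in library 3 of the Mycl group, and 1634 and 1520 in libraries 4 and 5 labelled RXR knockout in batch 2. Values of exactly 0 or 1, which few reads give readily, made up 37.1% of those in library 2 of the Mycl group and 24.7% in library 5 labelled knockout, against 6.45% to 11.9% in batch 1 and the Cre control. The median SD of PSI within a group was 0.0605 to 0.0716 in the batch 1 groups, 0.110 in the batch 2 group labelled knockout and 0.138 in the Mycl group.

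**Figure D1:**
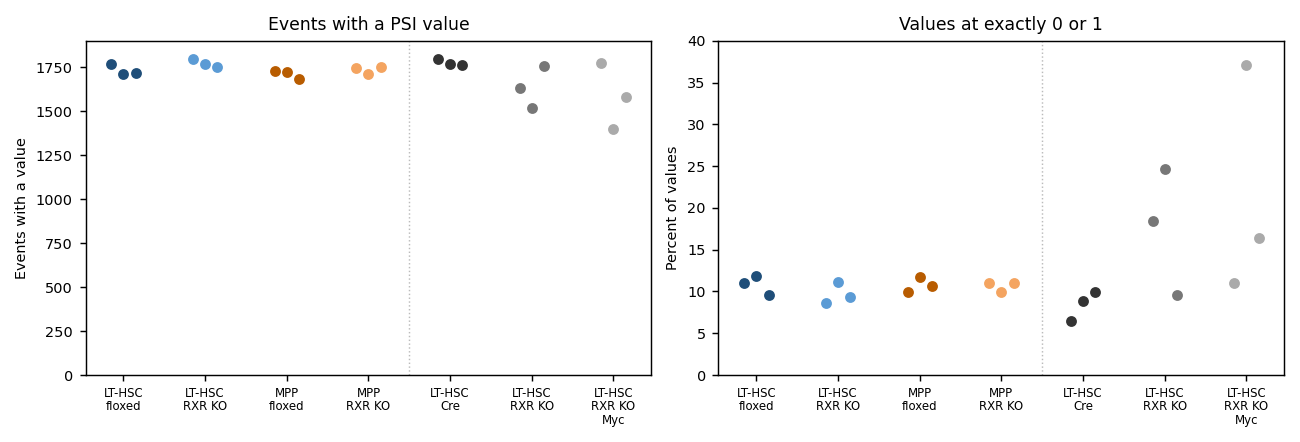
Number of the 1838 promoter and last exon events with a PSI value (left) and percent of those values at exactly 0 or 1 (right), 1 point per library, with batch 1 left of the dotted line and batch 2 right of it. Library 2 of the Mycl group (RXR KO Myc) has the fewest values, 1396, and the highest percent at 0 or 1, 37.1%.

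The annotation names and the junctions themselves did not always match. Of the promoter events, 1047 compared 2 donors that join 1 acceptor, as first exons do, 75 compared 2 acceptors of 1 donor, and 237 shared neither end. Of the last exon events, 380 compared 2 acceptors of 1 donor, as last exons do, and 99 shared an acceptor. Where an end was shared, the other ends lay a median of 2085 bases apart for promoter events (3 to 794819) and 4293 bases for last exon events (2 to 265107). For the 703 distinct promoter pairs with a shared acceptor, a start of the same gene was looked up in the RefSeq promoter table (GRCm38, known also as mm10) within 1000 bases before each donor. The gene was listed for 589 pairs, a start was found for the downstream donor of 385, for the upstream donor of 298, and 2 separate starts for 145. Among the genes described below, no start was found for either donor of Heg1, Macf1, Rps6ka3, Tet1, Wwp2 and Pde4d. In what follows an upstream or downstream start stands for the donor so named in the pair, whether or not the table lists a start before it.

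The sequences below are the 200 bases before 11 start sites of 8 genes called between LT-HSC and MPP. They are both starts of the 3 called pairs with a start before each donor (Arhgdib, Gpr56 and Abcg2), and the downstream start of 5 others with a listed start before that donor alone. Those of the other called genes are not shown. Capitals mark matches, on either strand, to any of 6 short motifs. The box bound by the general factor TBP was searched as TATAAA, which 9.96% of all windows of this length in the table held. The motif of the erythroid and stem cell factors of the GATA family was searched as AGATAA, held by 7.80%. That of the ETS family was searched as GGAAGT, held by 16.7%, and that of the RUNX family as TGTGGT, held by 11.2%. The E-box of basic helix-loop-helix proteins was searched as CACGTG, held by 5.26%, and the half-site of nuclear receptors as AGGTCA, held by 11.4%. No overlap between motifs occurred in these windows. Positions are GRCm38, and Gpr56 is the file's name for Adgrg1.
Mllt3 downstream start, chr4:87806324-87806523, minus strand: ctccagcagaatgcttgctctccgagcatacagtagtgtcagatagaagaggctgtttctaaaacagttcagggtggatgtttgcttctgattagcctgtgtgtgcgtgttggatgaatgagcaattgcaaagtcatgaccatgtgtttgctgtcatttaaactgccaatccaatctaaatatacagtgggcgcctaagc
Pik3r1 downstream start, chr13:101692631-101692830, minus strand: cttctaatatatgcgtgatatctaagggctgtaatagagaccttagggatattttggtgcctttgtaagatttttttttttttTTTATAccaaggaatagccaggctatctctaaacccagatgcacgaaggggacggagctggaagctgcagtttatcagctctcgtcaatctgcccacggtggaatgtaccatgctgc
Acot7 downstream start, chr4:152185408-152185607, plus strand: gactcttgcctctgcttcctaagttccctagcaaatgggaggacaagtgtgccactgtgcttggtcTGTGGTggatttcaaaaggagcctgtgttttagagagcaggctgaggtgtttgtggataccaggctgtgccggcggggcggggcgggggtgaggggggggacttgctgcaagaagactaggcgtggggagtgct
Arhgef3 downstream start, chr14:27335837-27336036, plus strand: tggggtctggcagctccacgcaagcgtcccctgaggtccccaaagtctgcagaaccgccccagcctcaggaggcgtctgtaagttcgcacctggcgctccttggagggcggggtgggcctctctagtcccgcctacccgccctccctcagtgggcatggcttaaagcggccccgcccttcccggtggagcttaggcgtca
Phactr2 downstream start, chr10:13324290-13324489, minus strand: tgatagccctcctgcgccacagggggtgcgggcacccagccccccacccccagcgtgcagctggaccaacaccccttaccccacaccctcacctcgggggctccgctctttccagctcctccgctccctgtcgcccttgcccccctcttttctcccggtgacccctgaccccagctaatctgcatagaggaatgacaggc
Arhgdib upstream start, chr6:136941900-136942099, minus strand: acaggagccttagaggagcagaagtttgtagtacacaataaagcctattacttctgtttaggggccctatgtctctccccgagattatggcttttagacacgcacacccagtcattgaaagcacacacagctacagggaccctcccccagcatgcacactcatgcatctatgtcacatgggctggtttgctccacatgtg
Arhgdib downstream start, chr6:136939528-136939727, minus strand: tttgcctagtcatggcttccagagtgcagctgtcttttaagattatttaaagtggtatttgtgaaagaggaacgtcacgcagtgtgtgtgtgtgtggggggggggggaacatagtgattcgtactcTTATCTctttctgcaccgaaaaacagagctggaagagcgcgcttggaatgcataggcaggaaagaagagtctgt
Gpr56 upstream start, chr8:94976909-94977108, plus strand: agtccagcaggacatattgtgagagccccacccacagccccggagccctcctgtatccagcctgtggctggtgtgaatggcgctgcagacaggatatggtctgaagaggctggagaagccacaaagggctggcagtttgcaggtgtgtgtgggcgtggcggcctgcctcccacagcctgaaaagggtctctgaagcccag
Gpr56 downstream start, chr8:94984199-94984398, plus strand: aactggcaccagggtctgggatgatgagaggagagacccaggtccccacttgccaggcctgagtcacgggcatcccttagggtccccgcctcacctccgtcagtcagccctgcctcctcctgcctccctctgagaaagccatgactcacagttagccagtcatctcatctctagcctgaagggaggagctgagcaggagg
Abcg2 upstream start, chr6:58596472-58596671, plus strand: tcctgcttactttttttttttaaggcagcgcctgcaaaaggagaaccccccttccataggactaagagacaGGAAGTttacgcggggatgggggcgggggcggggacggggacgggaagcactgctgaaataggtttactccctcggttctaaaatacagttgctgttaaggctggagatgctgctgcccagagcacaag
Abcg2 downstream start, chr6:58640346-58640545, plus strand: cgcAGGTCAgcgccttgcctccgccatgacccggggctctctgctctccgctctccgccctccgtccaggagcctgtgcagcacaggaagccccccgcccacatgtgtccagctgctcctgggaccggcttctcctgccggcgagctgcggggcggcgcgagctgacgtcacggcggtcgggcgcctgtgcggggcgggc

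The windows held 5 matches to the 6 motifs. The Arhgdib downstream window held AGATAA on the opposite strand, 74 to 69 bases before the start, the Pik3r1 window TATAAA on the opposite strand, 117 to 112 bases before it, and the Acot7 window TGTGGT, 134 to 129 bases before it. The Abcg2 upstream window held GGAAGT, 129 to 124 bases before the start, and its downstream window held AGGTCA, 197 to 192 bases before the start. The table holds 32851 such windows, and a match is a description only. The observed over expected CpG ratio was 0.308 before the Mllt3 downstream start, 0.338 for Acot7, 0.546 for Pik3r1, 0.574 for Arhgef3 and 0.409 for Phactr2. It was 0.217 and 0.163 for the upstream and downstream starts of Gpr56. For Arhgdib it was 0.166 before the upstream start and 0.614 before the downstream start, and for Abcg2 0.577 and 0.797. The median was 0.386 over all windows of the table, and 0.731 before the upstream and 0.750 before the downstream start of the 145 pairs with both starts found. The Abcg2 downstream window lay above both medians of the 145 pairs, and the other windows shown lay below them. Against the median of all windows, those of Pik3r1, Arhgef3, Phactr2, Abcg2 (both starts) and the Arhgdib downstream start lay above. The windows of Mllt3, Acot7, Gpr56 (both starts) and the Arhgdib upstream start lay below it.

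The first question was whether LT-HSC and MPP of the floxed controls start or end the same genes at different places. In MPP, 26 of 1458 events with a value in every batch 1 library were called different (limma, Benjamini-Hochberg adjusted p under 0.05 over 39715 events and a mean PSI difference of at least 0.1), 14 higher and 12 lower, in 17 genes. Mirror events are counted apart here, and the 26 events were 18 distinct junction pairs. The spread was estimated over all 12 libraries. Fitted on the 6 libraries of these groups alone, 9 of the 26 were still called, and with LT-HSC and MPP libraries of one number as a replicate block 2 were, both of the Mllt3 pair with donors 34471 bases apart (adjusted p of the other 24 in the blocked limma fit = 0.0806 to 0.186). Of all events tested, 0.486% were called (0.229% higher and 0.257% lower), against 1.78% of the promoter and last exon events. The calls were almost all promoter events: 25 of 1063 (2.35%) were called, against 1 of 395 last exon events (0.253%), 134 of 23996 intron retention events (0.558%) and 20 of 6484 cassette exon events (0.308%). At an unadjusted p under 0.05 the share was 15.5% of the promoter and last exon events (226) and 11.6% of all events. The groups did not overlap for 276 (18.9%), beside 13.9% of all events. The typical size of a difference was alike, with a median absolute difference of 0.0559 for the promoter and last exon events and 0.0554 for all. Events with 2 donors and 1 acceptor gave 17 called pairs in 16 genes. In 14 of these pairs MPP moved toward the upstream donor and in 3 toward the downstream one, while over all 546 such pairs tested, 284 moved toward the upstream donor.

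Mllt3, which encodes AF9, a chromatin reader of transcription elongation complexes that is known for its part in stem cell maintenance, showed the smallest adjusted p of all these events. Its downstream junction (chr4:87794011-87806211, minus strand) begins 112 bases after a RefSeq start inside the gene, and competes with a junction whose donor lies 34471 bases upstream. PSI of the downstream junction was 0.507, 0.527 and 0.565 in floxed LT-HSC and 0.0111, 0.0441 and 0.0213 in floxed MPP. So the internal start supplied about as much as the upstream exon in LT-HSC and almost nothing in MPP, and the groups were far apart (difference -0.51 ± 0.029 (SE), adjusted p = 0.000332). Knockout libraries, whose PSI does not enter this difference although the fit takes its spread from all 12 libraries of batch 1, gave 0.432, 0.428 and 0.518 in LT-HSC and 0.0154, 0.0167 and 0.0341 in MPP (difference -0.44 ± 0.029 (SE), adjusted p = 0.000523). The 9 LT-HSC libraries of batch 2 ranged from 0.215 to 0.480, above every MPP library. A second Mllt3 pair, with donors 447 bases apart within the same gene, moved in the same sense. PSI of its downstream junction was 0.442, 0.442 and 0.602 in floxed LT-HSC and 0.167, 0.19 and 0.167 in floxed MPP (difference -0.32 ± 0.045 (SE), adjusted p = 0.0196). This call ended without floxed MPP 1 (adjusted p = 0.0592). The mirror event from the upstream donor, called as well, lost its call without floxed LT-HSC 1 or floxed MPP 1, 2 or 3 (limma, adjusted p = 0.0546 to 0.0875). The gene as a whole was lower in MPP, at 145, 86.7 and 98.6 TPM in floxed LT-HSC and 18.8, 17.8 and 24.2 TPM in floxed MPP.

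Pik3r1 encodes the regulatory subunits of class I phosphoinositide 3-kinase, the full-length p85α from its upstream start and the shorter p55α and p50α from starts inside the gene. The junction from the downstream start (chr13:101690583-101692183, minus strand, 9264 bases after the upstream donor) had a PSI of 0.383, 0.291 and 0.355 in floxed LT-HSC and 0.0723, 0.0779 and 0.0512 in floxed MPP. The groups did not overlap, and MPP was lower in all 3 libraries (difference -0.28 ± 0.027 (SE), adjusted p = 0.00355). The junction from the upstream exon was correspondingly higher, at 0.512, 0.618 and 0.573 in LT-HSC and 0.882, 0.758 and 0.879 in MPP (difference 0.27 ± 0.039 (SE), adjusted p = 0.0209), although this call ended without floxed LT-HSC 1 or floxed MPP 1 (adjusted p = 0.0607 to 0.0627). In the knockouts the downstream junction stood at 0.358, 0.319 and 0.345 in LT-HSC and 0.0379, 0.0303 and 0.0293 in MPP. The total level of Pik3r1 did not pass the test in the floxed animals (limma, log2 difference -0.22 ± 0.19 (SE), adjusted p = 0.428). It was 40.02, 29.5 and 22.5 TPM in floxed LT-HSC and 26.3, 24.9 and 25.3 TPM in floxed MPP. When TPM was scaled by the median of ratios, the floxed difference was -0.52 ± 0.19 (SE), adjusted p = 0.0698 (limma). In the knockouts the level was lower in MPP and passed (limma, log2 difference -0.66, adjusted p = 0.0246). There it was 36.7, 39.8 and 34.6 TPM in LT-HSC and 21.8, 24.1 and 23.3 TPM in MPP.

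Arhgdib, Arhgef3 and Phactr2, whose products act on small GTPases or actin, moved toward the upstream start in MPP. Arhgdib, a dissociation inhibitor of small GTPases in blood cells, has RefSeq starts before both donors, 2140 bases apart. Its upstream junction (chr6:136933773-136941651, minus strand) had a PSI of 0.467, 0.442 and 0.453 in floxed LT-HSC and 0.666, 0.719 and 0.707 in floxed MPP (difference 0.24 ± 0.026 (SE), adjusted p = 0.00564). The upstream start was thus used in both cells, with a larger share in MPP. The share of the downstream start cannot be read from this value, since mirror PSI values need not sum to 1. Arhgef3, an exchange factor of small GTPases, was read almost wholly from its downstream start in LT-HSC, with a PSI of 0.957, 0.935 and 0.902 (chr14:27336269-27362790, plus strand), while MPP stood at 0.675, 0.627 and 0.569 (difference -0.31 ± 0.032 (SE), adjusted p = 0.00529). The junction from the upstream Arhgef3 exon, 70684 bases before it, was at 0, 0.026 and 0.0976 in LT-HSC and 0.291, 0.193 and 0.259 in MPP. It was 0 to 0.0976 in all 15 LT-HSC libraries and 0.193 to 0.346 in all 6 MPP libraries, although the call ended without floxed LT-HSC 1 or 2 or floxed MPP 1 or 3 (adjusted p = 0.0753 to 0.137). Phactr2, a regulator of protein phosphatase 1 and actin, had an upstream junction (chr10:13291962-13474056, minus strand) with a PSI of 0.437, 0.439 and 0.406 in floxed LT-HSC and 0.851, 0.931 and 0.90 in floxed MPP (difference 0.47 ± 0.052 (SE), adjusted p = 0.00605), at starts 149992 bases apart.

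Acot7, a thioesterase that cleaves long-chain acyl-CoA, gave the largest shift called in both genotypes. Its upstream junction (chr4:152178340-152206764, plus strand) had a PSI of 0.356, 0.226 and 0.474 in floxed LT-HSC and 0.926, 0.857 and 1 in floxed MPP, with a clear gap between the groups (difference 0.58 ± 0.065 (SE), adjusted p = 0.00684). The mirror event from the downstream start fell to 0.0185, 0.0571 and 0 in MPP, from 0.627, 0.565 and 0.421. Among batch 2 LT-HSC the upstream value ran from 0 to 0.825 and overlapped MPP, with the lowest value in library 3 of the Mycl group and the highest in library 5 labelled knockout, both libraries with few values.

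Gpr56 and Heg1, which encode cell surface proteins, moved in the same sense. Gpr56, an adhesion receptor characteristic of primitive blood cells, had an upstream PSI (chr8:94977417-95002439, plus strand) of 0.461, 0.538 and 0.441 in floxed LT-HSC and 0.727, 0.723 and 0.723 in floxed MPP (difference 0.24 ± 0.028 (SE), adjusted p = 0.00684). All 15 LT-HSC libraries, of both batches, lay at 0.4001 to 0.558 and all 6 MPP libraries at 0.691 to 0.727. Gpr56 itself was lower in MPP, at 206, 118 and 114 TPM against 46.6, 46.3 and 49.9 TPM. Heg1, a transmembrane protein first known from heart and vessel development, had an upstream PSI (chr16:33751209-33760758, plus strand) of 0.411, 0.354 and 0.394 in floxed LT-HSC and 0.585, 0.619 and 0.601 in floxed MPP (difference 0.22 ± 0.028 (SE), adjusted p = 0.012).

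**Figure D2:**
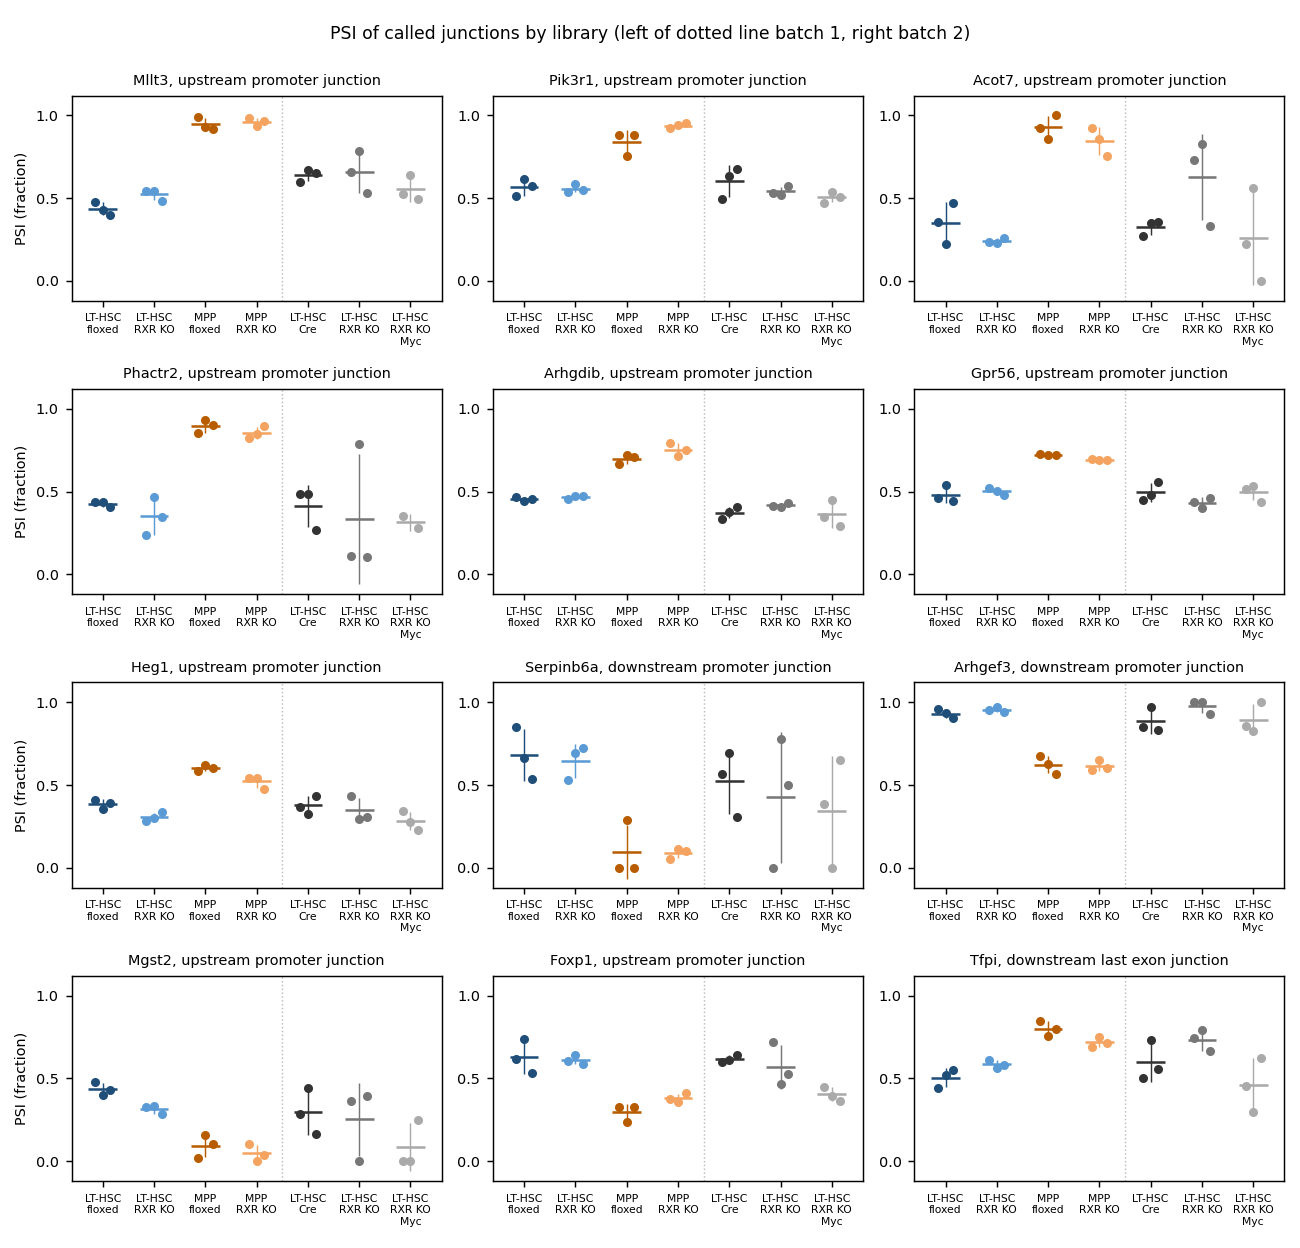
PSI by library (points), with the group mean (horizontal bar) and SD (vertical line, n = 3 unless a library had no value), for 12 genes with a called event between floxed LT-HSC and MPP; the junction plotted is named above each panel, and batch 2 stands right of the dotted line. For Gpr56 the 15 LT-HSC libraries lie at 0.4001 to 0.558 and the 6 MPP libraries at 0.691 to 0.727.

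3 genes moved the other way, toward the downstream start in MPP. Mgst2, a microsomal glutathione S-transferase, had an upstream PSI (chr3:51637135-51664511, plus strand) of 0.478, 0.40 and 0.429 in floxed LT-HSC and 0.0192, 0.156 and 0.103 in floxed MPP (difference -0.34 ± 0.041 (SE), adjusted p = 0.00952). Foxp1, a forkhead factor of lymphoid development and the only one of the haematopoietic transcription factors called here, had an upstream PSI (chr6:99260419-99308344, minus strand) of 0.615, 0.735 and 0.533 in LT-HSC and 0.327, 0.238 and 0.324 in MPP (difference -0.33 ± 0.048 (SE), adjusted p = 0.022). That call ended without floxed LT-HSC 1 or floxed MPP 2 (adjusted p = 0.0602 to 0.0608). Slc43a1, an amino acid transporter, had a downstream PSI of 0.656, 0.522 and 0.627 in LT-HSC and 0.976, 0.931 and 0.927 in MPP (difference 0.34 ± 0.048 (SE), adjusted p = 0.0196). It lost the call without floxed LT-HSC 2 or floxed MPP 1 (adjusted p = 0.0562 to 0.0617).

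Abcg2, Serpinb6a, Ccser2 and Macf1 were also called in the floxed animals and moved toward the upstream donor, and each lost its call without 1 or more libraries. Abcg2, the efflux transporter behind the dye-excluding side population of stem cells, had an upstream PSI of 0.314, 0.193 and 0.123 in LT-HSC and 0.595, 0.49 and 0.727 in MPP (difference 0.39 ± 0.069 (SE), adjusted p = 0.0481), but 0.409, 0.262 and 0.403 and 0.432, 0.368 and 0.412 in the knockouts, where the groups overlapped. Its call ended without floxed LT-HSC 2 or 3 or floxed MPP 1 or 3 (adjusted p = 0.0684 to 0.144). Serpinb6a, a serine protease inhibitor, had a downstream PSI of 0.848, 0.661 and 0.538 in LT-HSC and 0, 0.286 and 0 in MPP (difference -0.59 ± 0.096 (SE), adjusted p = 0.0369). It lost the call without floxed LT-HSC 1 or 2 or floxed MPP 1 or 3 (adjusted p = 0.0684 to 0.107). Ccser2 had a downstream PSI of 0.323, 0.264 and 0.235 and 0.00943, 0.0467 and 0.038 (difference -0.24 ± 0.034 (SE), adjusted p = 0.0196). It was not called without floxed LT-HSC 1 or 2 or floxed MPP 1 (adjusted p = 0.055 to 0.0615). The upstream Ccser2 junction, called as well, lost its call without any one library other than floxed MPP 3 (limma, adjusted p = 0.0798 to 0.110). In the knockouts that upstream junction was not called. Macf1, a linker of microtubules and actin, had a downstream PSI of 0.402, 0.361 and 0.281 and 0.104, 0.098 and 0.122 (difference -0.24 ± 0.032 (SE), adjusted p = 0.014). It was not called without floxed LT-HSC 2 (adjusted p = 0.0548). Over all 26 events, 15 in 11 genes were called whichever of the 6 libraries was left out.

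Listed start sites were also compared between the 17 called pairs and all pairs tested. For 10 of the 17 a RefSeq start was found within 1000 bases of the downstream donor only, and for 3 before both donors separately. Among all 546 pairs tested the downstream donor alone had a start in 107. In 7 of these 10 called pairs MPP moved away from that start and toward the upstream exon. Over all called pairs 14 of 17 moved toward the upstream donor, and of the 107 tested pairs 57 did. No test was run on this, since the pairs were picked by their calls.

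The 1 called last exon event was in Tfpi, tissue factor pathway inhibitor, a clotting regulator whose isoforms differ at the C-terminus. The junction from the shared donor to the acceptor farther downstream (chr2:84434421-84444010, minus strand) had a PSI of 0.441, 0.523 and 0.552 in floxed LT-HSC and 0.844, 0.757 and 0.802 in floxed MPP (difference 0.30 ± 0.035 (SE), adjusted p = 0.00956). The groups did not overlap there, but the knockouts stood closer together, at 0.614, 0.566 and 0.58 and 0.692, 0.75 and 0.717 (difference 0.13 ± 0.035 (SE), adjusted p = 0.266), and batch 2 LT-HSC reached from 0.30 to 0.790. Next by p among the last exon events came Rps6ka1, encoding the kinase RSK1, named here after its values were seen. The upstream junction of its pair, annotated as a last exon although it shares an acceptor, was at 0.351, 0.302 and 0.15 in LT-HSC and 0.571, 0.672 and 0.618 in MPP and did not pass (difference 0.35 ± 0.065 (SE), adjusted p = 0.06).

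Gene level and start choice were set side by side for the 17 genes with a called event. In TPM, 9 of them differed between floxed MPP and LT-HSC (limma on log2(TPM + 1), adjusted p under 0.05), 4 higher and 5 lower, and the background was 21.2% of 14839 genes called (15.5% higher and 5.62% lower). The median gene was 0.26 higher in MPP on this log2 scale. Scaling by the median of ratios instead moved that median to about 0 and the split to 1 higher and 8 lower. Under it Arhgdib, Macf1 and Mgst2 were no longer called higher, Foxp1 still was, and Heg1, Slc43a1 and Tfpi were called lower as well. Mllt3 had the largest fall (-2.36 ± 0.21 (SE), adjusted p = 1.37e-06), and the genes that fell also included Gpr56 (-1.54 ± 0.21 (SE), adjusted p = 0.000111), Serpinb6a (-1.50 ± 0.31 (SE), adjusted p = 0.00319) and Abcg2 (-1.11 ± 0.18 (SE), adjusted p = 0.000604). Foxp1 rose (0.93 ± 0.20 (SE), adjusted p = 0.00431). Phactr2 gave a difference of 0.05 ± 0.20 (SE), adjusted p = 0.872, beside a PSI difference of 0.47, and had 24.4, 18.02 and 13.7 TPM in LT-HSC and 19.9, 18.9 and 18.1 TPM in MPP. Genes that moved to the upstream start were found on both sides of 0 in level. In bulk samples fewer cells using a start and less use of it per cell cannot be told apart.

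**Figure D3:**
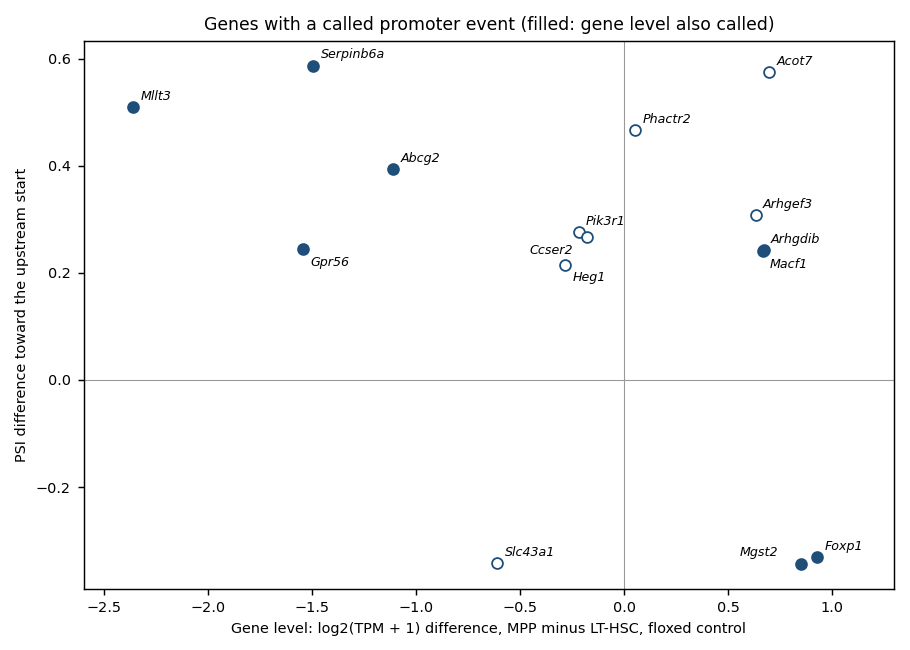
For the genes named in the text with a called promoter event between floxed LT-HSC and MPP, the log2(TPM + 1) difference of the gene (x axis, MPP minus LT-HSC) and the PSI difference signed so that positive means toward the upstream start (y axis); filled points are genes whose level was also called. Mllt3 lies farthest left at -2.36, and 3 genes lie below 0 on the y axis.

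The second question was whether the same start choices separate LT-HSC from MPP in the animals labelled RXR knockout. In the batch 1 knockouts 25 of 1458 events were called, 14 higher and 11 lower in MPP, in 14 genes, all of them promoter events. The background was 0.305% of all events called (0.149% higher and 0.156% lower), against 1.71% of these. At an unadjusted p under 0.05 it was 7.92% of all events and 13.4% of these (195), and groups did not overlap for 10.4% of all and 21.3% of these (310). The 6 libraries are not those of the floxed contrast, but both contrasts take their spread from the same fit of 12 libraries, so the calls are not independent of each other. Fitted on these 6 libraries alone, 12 of the 25 were still called, and with the replicate block 0 were (limma, 198 of the 1458 at an unadjusted p under 0.05). All 26 events called in the floxed animals had the same direction in the knockouts, 17 of them (65.4%) were called again, and those 17 were 68.0% of the knockout calls and fell in 10 genes. In 24 of the 26 the knockout groups did not overlap. Of the 25 knockout calls, 14 in 9 genes held whichever of the 6 libraries was left out. Of the 1432 events not called in the floxed animals, 58.1% had the same direction in the knockouts and 8 (0.559%) were called there. Adding the 9 LT-HSC libraries of batch 2, all LT-HSC values present lay apart from all MPP values for 13 of the 26 events, in 8 genes, among them Mllt3, Pik3r1, Arhgdib, Arhgef3, Phactr2, Gpr56 and Heg1.

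**Figure D4:**
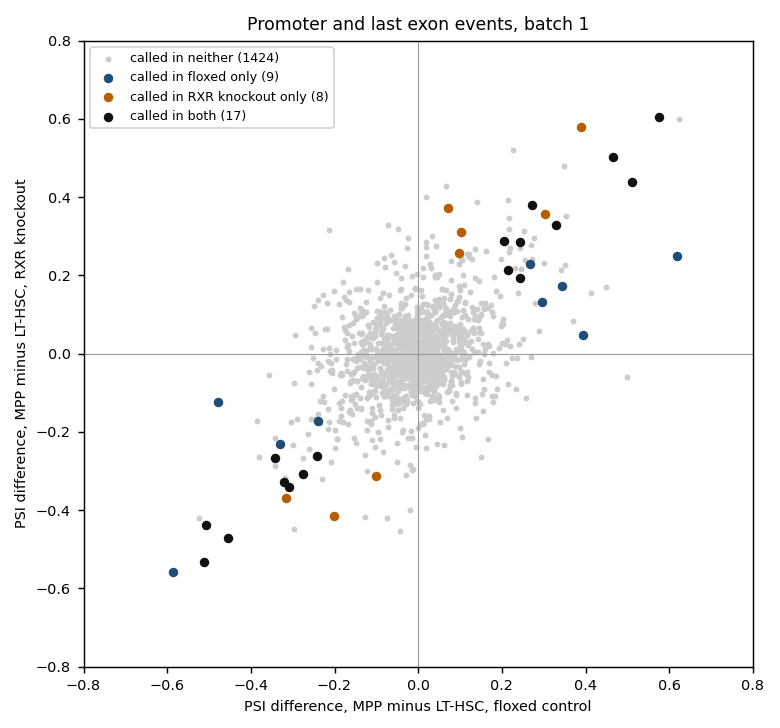
PSI difference between MPP and LT-HSC in floxed controls (x axis) and in RXR knockouts (y axis) for the 1458 promoter and last exon events tested, 1 point per event. The 17 events called in both genotypes have the same sign in both, and none of the 34 called in either lies in a quadrant of opposite signs.

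4 genes were called in the knockouts only. Tet1, which oxidises methylated cytosine in DNA, had a downstream PSI (chr10:62864861-62865136, minus strand) of 0.157, 0.172 and 0.217 in knockout LT-HSC and 0.647, 0.51 and 0.507 in knockout MPP (difference 0.37 ± 0.042 (SE), adjusted p = 0.00696), beside 0.211, 0.207 and 0.192 and 0.321, 0.22 and 0.286 in the floxed animals. Pde4d, a cAMP phosphodiesterase with many promoters, had an upstream PSI of 0, 0 and 0 in knockout LT-HSC and 0.218, 0.26 and 0.29 in knockout MPP (difference 0.26 ± 0.026 (SE), adjusted p = 0.00396). In the floxed animals it was 0.0115, 0.0116 and 0.00746 and 0.0735, 0.102 and 0.146, and over LT-HSC of batch 2 it reached from 0 to 0.618. Sept9, a filament-forming GTPase, had an upstream PSI of 0.971, 0.896 and 0.833 and 0.519, 0.569 and 0.509 (difference -0.37 ± 0.060 (SE), adjusted p = 0.0449). This call ended when any one of the 6 libraries was left out (adjusted p = 0.0646 to 0.120). Wwp2, a ubiquitin ligase, had an upstream PSI of 0.786, 0.731 and 0.546 and 1, 1 and 1 (difference 0.31 ± 0.051 (SE), adjusted p = 0.0455). Wwp2 was not called without knockout LT-HSC 2 or knockout MPP 1, 2 or 3 (adjusted p = 0.0747 to 0.126). In the floxed animals Sept9 stood at 0.955, 0.866 and 0.845 in LT-HSC and 0.535, 0.707 and 0.479 in MPP, without overlap. The upstream PSI of Wwp2 was 1 in all 6 MPP libraries, floxed and knockout. Over all LT-HSC of batch 1 it was 0.546 to 0.922, so the floxed groups did not overlap for Wwp2 either. The difference between the genotypes was tested as an interaction over all events. It gave 0 of 1458 calls by limma (99 at an unadjusted p under 0.05), against a background of 0.0755% of all events called and 7.69% at that unadjusted p. Among the lowest p values were those of Tet1 (0.30 ± 0.059 (SE), adjusted p = 0.189), Pde4d (0.16 ± 0.037 (SE), adjusted p = 0.295) and the last exon of Copg2 (0.38 ± 0.091 (SE), adjusted p = 0.315), a subunit of the coat of Golgi vesicles, so no event was shown to switch differently between genotypes.

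With the difference averaged over both genotypes, an alternative chosen after seeing the data, 53 events in 32 genes were called (0.647% of all events called, 3.64% of these). Of 32 called pairs with 1 acceptor, 25 moved to the upstream donor in MPP and 7 to the downstream one, beside 295 of 546 tested. Added to the genes above were, among others, 3 with a part in blood cell regulation. Mecom, whose upstream start gives the long MDS1-EVI1 protein and whose downstream start, 225436 bases on, gives EVI1, had a downstream PSI of 0.407, 0.42 and 0.333 in floxed LT-HSC and 0.186, 0.121 and 0.273 in floxed MPP, and of 0.41, 0.341 and 0.475 and 0.153, 0.18 and 0.237 in the knockouts. MPP was lower in all 6 libraries (mean difference -0.21 ± 0.034 (SE), adjusted p = 0.0298), though neither genotype passed alone (adjusted p = 0.157 in floxed and 0.15 in knockout, limma). Elf1, an ETS factor, had an upstream PSI of 0.213, 0.246 and 0.215 and 0.556, 0.456 and 0.425 in the floxed animals and of 0.321, 0.344 and 0.473 and 0.58, 0.576 and 0.702 in the knockouts (mean difference 0.25 ± 0.037 (SE), adjusted p = 0.0171). Pik3cd, the catalytic p110δ partner of the Pik3r1 products, had a downstream PSI of 0.162, 0.352 and 0.292 and 0, 0.0169 and 0 in the floxed animals (mean difference -0.23 ± 0.035 (SE), adjusted p = 0.018). LT-HSC values of batch 2 for these junctions ran from 0.0740 to 0.604 (Mecom), 0.103 to 0.447 (Elf1) and 0 to 0.321 (Pik3cd). Each of these ranges overlapped that of the MPP libraries.

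Of 75 haematopoietic transcription factors listed, 16 had a promoter or last exon event, all tested in batch 1. In the floxed contrast 1 event was called, that of Foxp1, and it was lower, while 9 of 36 events had an unadjusted p under 0.05. Gata2, whose distal promoter is the blood-restricted one, had an upstream PSI of 0.0526, 0.25 and 0.116 in floxed LT-HSC and 0.025, 0.0417 and 0.0781 in floxed MPP, and of 0.169, 0.0993 and 0.171 and 0.25, 0.135 and 0.337 in the knockouts, with overlapping groups in both genotypes (floxed difference -0.09 ± 0.059 (SE), adjusted p = 0.639). Ikzf1, which encodes the lymphoid factor Ikaros, had a downstream PSI of 0, 0 and 0.0123 in floxed LT-HSC and 0.153, 0.157 and 0.093 in floxed MPP, apart but not called (difference 0.13 ± 0.039 (SE), adjusted p = 0.232). In the knockouts it was 0.0164, 0.146 and 0 in LT-HSC and 0.145, 0.117 and 0.0957 in MPP, where the groups overlapped, and LT-HSC of batch 2 reached 0.196. Ikzf2 and Nfia, with downstream differences of -0.21 (adjusted p = 0.359, limma) and -0.18 (adjusted p = 0.372), did not pass. The largest-difference events of Cbfa2t3, Erg, Fli1, Lmo2, Nfe2, Nfix, Runx3, Stat5b and Tcf4 lay between -0.14 (Tcf4) and 0.12 (Stat5b), with adjusted p of 0.502 or more.

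The other lists gave few calls in the floxed contrast. Among 7 genes of cytokine and growth factor signalling, Pik3r1 was called, with 1 event higher and 1 lower. Macf1, lower at its downstream donor, was the one called among the 8 tested genes on the list for the cytoskeleton and small GTPases, which does not hold Arhgdib, Arhgef3 or Phactr2. None was called among the 1 gene each tested of cell surface and adhesion and of cell cycle and DNA repair, or among 14 genes of chromatin and DNA methylation, 6 RNA-binding genes, 4 metabolic genes or 4 nuclear receptor and co-regulator genes (limma; 0 and 0, then 3, 1, 0 and 0 events at an unadjusted p under 0.05). In the knockout contrast Tet1 was the one called among the chromatin genes, higher at its downstream donor.

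The third question was what differed between the genotypes, as labelled, within a cell type. In LT-HSC of batch 1, 2 of 1458 events were called between knockout and floxed control, 1 higher and 1 lower, and both were the mirror events of Rps6ka3, which encodes the kinase RSK2 on the X chromosome. The background was 0.166% of all events called, against 0.137% of these, so the share was near the background. At an unadjusted p under 0.05 it was 11.3% of all and 9.33% of these (136), and groups did not overlap for 12.5% of all and 11.8% of these (172). PSI of the upstream junction (chrX:159285322-159311464, plus strand) was 0.702, 0.688 and 0.706 in floxed LT-HSC and 0.339, 0.49 and 0.397 in knockout LT-HSC. All 3 knockouts lay below all 3 controls (difference -0.29 ± 0.036 (SE), adjusted p = 0.0189), and the junction from the downstream donor, 18078 bases on, was the event called higher. The call ended without floxed LT-HSC 1, 2 or 3 or knockout LT-HSC 3 (adjusted p = 0.0511 to 0.0636). In MPP the values were 0.769, 0.762 and 0.735 in floxed and 0.583, 0.544 and 0.594 in knockout, again without overlap, but this did not pass (difference -0.18 ± 0.036 (SE), adjusted p = 0.112). Averaged over both cell types, a contrast added after seeing the data, the difference was -0.24 ± 0.025 (SE), adjusted p = 0.00951, and the Rps6ka3 events were the 2 called (background 0.184%). In batch 2 the Cre control had 0.621, 0.714 and 0.696, the libraries labelled RXR knockout 0.429, 0.0625 and 0.507 and the Mycl group 0.43, 0.75 and 0.229. The labelled knockouts lay below the Cre controls, with library 5, which has few values, far below the others, and this did not pass (difference -0.34 ± 0.161 (SE), adjusted p = 1). The Y-linked gene Ddx3y, a sign of the sex of the pooled animals, stood at 2.49 to 8.72 TPM over batch 1. In batch 2 it stood at 1.66, 1.81 and 10.99 TPM in the Cre controls and at 0.0173 to 0.176 TPM in the libraries labelled knockout. All labelled knockouts thus lay below all Cre controls, so this sign of sex differed along with the genotype label. In the Mycl group it stood at 0.0201, 0.0427 and 11.4 TPM, so 1 library of that group differed from the others. The part of sex in the batch 2 values was not tested. Total Rps6ka3 was 40.2, 25.8 and 29.9 TPM in floxed LT-HSC and 56.7, 59.2 and 64.1 TPM in knockout LT-HSC.

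Neutrophil markers (6 genes) summed to 35.2 to 59.4 TPM in floxed and 128 to 1268 TPM in knockout LT-HSC, and to 42.8 to 209.5 TPM in floxed and 270.0 to 803 TPM in knockout MPP, with none at 0 throughout a group. Monocyte, macrophage and dendritic cell markers (6 genes) summed to 101 to 188 TPM in floxed and 246 to 274 TPM in knockout LT-HSC, and to 139 to 147 TPM in floxed and 183 to 233 TPM in knockout MPP, with Adgre1 at 0 throughout floxed LT-HSC. Mast cell and basophil markers (5 genes) summed to 3.75 to 10.8 TPM in floxed and 17.5 to 45.6 TPM in knockout LT-HSC, and to 29.6 to 70.5 TPM and 56.7 to 71.5 TPM in MPP, where they overlapped. T and NK cell markers (6 genes) summed to 2.23 to 5.37 TPM in floxed and 6.68 to 13.7 TPM in knockout LT-HSC, and to 22.2 to 30.3 TPM and 27.7 to 30.4 TPM in MPP. In LT-HSC the lists of LT-HSC markers (237 to 404 TPM in floxed, 545 to 730 TPM in knockout) and of MPP markers (85.02 to 180.3 TPM and 207 to 315 TPM) also lay apart, as did the B cell list given above. In MPP the megakaryocyte list given above lay apart between the genotypes. Throughout floxed LT-HSC, 4 of the 6 monocyte, macrophage and dendritic cell markers and 4 of the 6 T and NK cell markers stayed under 1 TPM. In knockout LT-HSC 3 of each list did so. In each MPP group 1 of the former and 4 of the latter did so. The part of all these markers in the genotype contrasts was not tested.

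In MPP the 1 called event between knockout and floxed control was in Tet1 and was higher. The background was 0.199% of all events, against 0.0686% of these. At an unadjusted p under 0.05 it was 9.2% of all and 7.61% of these (111), and groups did not overlap for 12.2% of all and 12.4% of these (181). The Tet1 downstream junction, 13016 bases after the upstream donor, rose from 0.321, 0.22 and 0.286 in floxed MPP to 0.647, 0.51 and 0.507 in knockout MPP (difference 0.28 ± 0.042 (SE), adjusted p = 0.0441), with no overlap, while LT-HSC lay at 0.157 to 0.217 over both genotypes. The call ended without floxed MPP 2 or 3 or knockout MPP 2 or 3 (adjusted p = 0.0533 to 0.0824). In batch 2 the same junction ran from 0.0735 to 0.60 within the 9 LT-HSC libraries, wider than any batch 1 group.

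**Figure D5:**
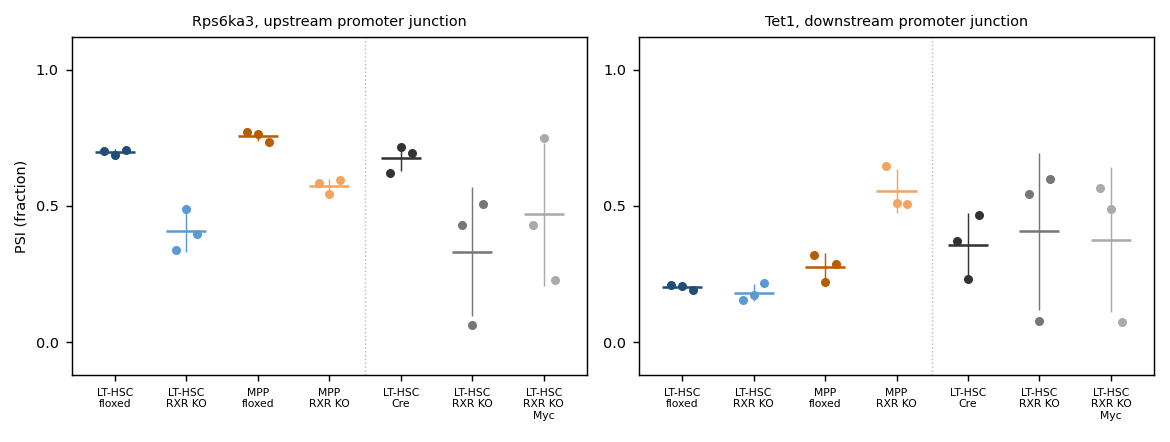
PSI by library (points), group mean (horizontal bar) and SD (vertical line) of the upstream Rps6ka3 junction and the downstream Tet1 junction in all 7 groups, batch 2 right of the dotted line. For Rps6ka3 the knockout libraries of batch 1 lie below the floxed libraries of the same cell type, and for Tet1 the knockout MPP libraries stand above all other libraries of batch 1, while batch 2 LT-HSC spreads from 0.0735 to 0.60.

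4 nuclear receptor and co-regulator genes had an event: Rarg, Nr3c1, Ncor1 and Nrip1. None of their 7 events was called in any batch 1 contrast. Rarg encodes a retinoic acid receptor that acts as a dimer with RXR, and its downstream PSI gave a difference of 0.33 between knockout and floxed MPP (unadjusted p = 0.0307 in the limma fit, adjusted p = 0.47) and of -0.05 in LT-HSC (adjusted p = 0.943, limma). Nr3c1, the glucocorticoid receptor, gave upstream differences of -0.04 and 0.09 in LT-HSC and MPP.

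In batch 2, 1107 events had a value in all 9 libraries, and none was called. Between libraries labelled RXR knockout and Cre controls limma called 0 of 1107 (46 at an unadjusted p under 0.05; background 0.0389% of 28309 events called and 3.19% at an unadjusted p under 0.05). The groups did not overlap for 144, 13.0% of these beside 8.11% of all events. Between the Mycl group and the labelled knockouts it called 0 (104 at an unadjusted p under 0.05; background 0.0141% and 5.19%), with 96 groups apart (8.67%, beside 4.58% of all). Between the Mycl group and the Cre controls it called 0 (66 at an unadjusted p under 0.05; background 0.0318% and 3.91%), with 123 groups apart (11.1%, beside 7.05% of all). The median standard error of a difference was 0.0929 in this batch and 0.0606 in batch 1, so differences of the size called in batch 1 were harder to detect here. The event with the lowest p between the Mycl group and the labelled knockouts was a last exon of Creb1, the cAMP-responsive transcription factor. Its downstream PSI was 0.757, 0.725 and 0.75 in the Mycl group, 1, 0.909 and 0.895 in the labelled knockouts and 0.917, 0.955 and 0.962 in the Cre controls. The Mycl libraries lay below all others of the batch, and the adjusted p was 0.375 against the labelled knockouts and 0.356 against the Cre controls. Next by p against the labelled knockouts stood Rpl23, a ribosomal protein gene (0.31 ± 0.050 (SE), adjusted p = 0.438), the chromatin reader gene Sp140 (-0.21 ± 0.035 (SE), adjusted p = 0.493) and Txndc9 (-0.43 ± 0.075 (SE), adjusted p = 0.493). Against the Cre controls the lowest p was that of Gm8112 (-0.38 ± 0.048 (SE), adjusted p = 0.211), ahead of Creb1. Behind Creb1 stood Eci2, an enzyme of fatty acid oxidation (-0.22 ± 0.042 (SE), adjusted p = 0.811), and Brcc3, a deubiquitinase of DNA repair (0.31 ± 0.063 (SE), adjusted p = 0.828). Between labelled knockouts and Cre controls the lowest p belonged to Gm14418, Hcst, Nipal3 and Sgms1, each with an adjusted p of 1. Hcst, which encodes the adaptor DAP10, had a downstream PSI of 0.896, 0.939 and 0.884 in the Cre controls and 0.745, 0.722 and 0.823 in the labelled knockouts, where the groups did not overlap (difference -0.14 ± 0.029 (SE), adjusted p = 1). Batch 2 has no MPP, so the cell type contrast could not be repeated within it.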

How the data were processed

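RNA from LT-HSC and MPP of pooled mice was amplified and sequenced in 21 libraries, 3 in each of 7 groups. Per the submitters' processing notes, STAR 2.6, kallisto and the mm10 build were used; which program called the events, and with how many reads, was not stated in the sources at hand. The deposited PSI values are fractions (0 to 1) per junction event without read counts, so depth is unknown and no interval from reads can be given. The lowest value in the deposited column of PSI differences is 0.15, so events with smaller differences are not analysed here. The deposited TPM values of all libraries summed to 691094 to 918942.

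PSI was fitted with limma 3.58.1 (R 4.3.3) over all events with a value in every library, 39715 in the 12 libraries of batch 1 and 28309 in the 9 of batch 2. Calls needed a Benjamini-Hochberg adjusted p under 0.05 over all events and a mean difference of at least 0.1. log2(TPM + 1) was fitted with limma for genes of at least 1 TPM in 3 libraries. The code was tested on simulated data, with 200 events or genes changed in each run. A PSI change of 0.2 was called in 0 of 200 events, both for floxed MPP against LT-HSC and for labelled knockout against Cre control. With a PSI change of 0.4, 38.5% were called in the former contrast and 6.5% in the latter. Of the genes changed in TPM, 95.0% were called. The rule for named genes took, per contrast, the called genes by size of their largest difference (up to 12 in each direction for floxed MPP against LT-HSC, up to 6 elsewhere), called genes of the lists, tested haematopoietic transcription factors, and the 4 events of lowest p where none was called. The events and lists were chosen with earlier results of these data known. Alternatives tried were a logit scale, a variance trend, other filters and minimum differences, separate fits, a replicate block, leaving out each library, and for TPM another pseudocount, no filter and another scaling. Of the called genes, 1 is counted but not reported here by name. Sequences are from RefSeq (GRCm38.p6).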

Additional observations from a re-analysis of the deposited data

How the results depend on the processing

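All 26 events called between MPP and LT-HSC of the floxed animals, and all 25 of the knockouts, kept their direction under every alternative run; the number called did not. The 26 became 9 when only the groups compared were fitted (9 of the 26), 2 with a replicate block, 53 with the mean over both genotypes (added after seeing the data), and 17 to 31 without single libraries, the 17 without floxed MPP 1. The logit scale still called 10 of the 26 and a variance trend 21. In the knockouts the 25 became 0 with the replicate block and 15 to 25 without single libraries, the 15 without knockout MPP 3; 12 of the 25 remained called with only the groups compared and 15 on the logit scale. Of the 17 called promoter pairs, 14 moved upstream; this was 7 with only the groups compared, 1 with the block, 25 with the mean over genotypes and 10 to 15 without single libraries. Knockout against floxed LT-HSC (2 called) gave 0 on the logit scale, 0 with a variance trend, 1 with only the groups compared, 0 with the block and 0 to 9 without single libraries (9 without knockout LT-HSC 1, 0 without floxed LT-HSC 2 or knockout LT-HSC 3). In MPP (1 called) the count was 0 on the logit scale, 0 with only the groups compared, 0 with the block and 0 to 4 without single libraries (4 without floxed MPP 3 or knockout MPP 1, 0 without knockout MPP 3). The interaction (0) gave 0 to 2, the 2 without floxed MPP 3. In batch 2 the 3 contrasts (0 each) gave 0 to 4 for labelled knockout against Cre control (4 without labelled knockout 6), 0 to 6 for the Mycl group against labelled knockout (6 without labelled knockout 6) and 0 to 6 against Cre control (6 without Mycl 1). Without the 2 libraries with the fewest values, added after seeing the data, the first and second gave 1 each. Of the TPM calls, 9 of 17 genes, 5 to 11 remained by count without single libraries (5 without floxed MPP 1), and 12 with the block. The cause of these changes was not tested. Of 822 values of single genes, 602 stayed on their side of the threshold, 219 lost the call, 1 gained it and 0 reversed.

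In batch 1 the descriptions give LT-HSC and MPP libraries of one genotype and number a name in common, which may mark a shared pool, but no label says so. Correlations of their deviations from group means were 0.0447 to 0.205 between knockout LT-HSC and MPP, where each library correlated best with its own number (other pairs at most 0.0378), and -0.0352 to 0.00813 between floxed LT-HSC and MPP (other pairs at most 0.0323). Between Cre controls and labelled knockouts of batch 2 they were -0.0382 to -0.0139. Pairing was therefore not settled, and the reported results are without the replicate block. Without read counts, PSI of weakly expressed genes cannot be weighted by depth.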

Other observations

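Averaging MPP against LT-HSC over both genotypes, a contrast added after seeing the data, also called promoter or last exon events in Ampd2, Chd9, Fam222b, Gse1, H2afy, Osbpl1a, Ralgps2 and Rin3, which neither genotype passed alone. Their values stand as descriptions.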
